A study of Mus musculus with 8 samples.

Results

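The genes described here are 10 nuclear genes that shape the mitochondrial network and mark mitochondria for removal, chosen by name from the 24460 genes of the count files. They are Mfn1, Mfn2 and Opa1 of the fusion machinery, Dnm1l, Fis1, Mff and Mief1 of the fission machinery, and Pink1, Bnip3l and Fundc1 of mitophagy. All 10 were counted in every library and all 10 passed the filter on low counts. They were measured by RNA-Seq in wild type mouse embryonic fibroblasts (MEFs), cultured fibroblasts taken from mouse embryos, exposed to RHPS4, a positively charged small molecule that binds G-quadruplexes (G4), the stacked structures that guanine-rich DNA or RNA can fold into. The groups were 0 µM RHPS4 (3 libraries), 2 µM (3 libraries) and 10 µM (2 libraries), and the 0 µM cells are the untreated controls. The labels' protocol names exposures of 16 or 24 h without giving which applies to these libraries, and names no sex, age or genotype beyond wild type. The labels do not say whether libraries of a dose came from separate cultures, so the p values measure the spread between these libraries, which may be technical.

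Mitochondria continually join and divide. Fusion merges the outer membranes through the mitofusins MFN1 and MFN2 and the inner membranes through OPA1, whereas division is carried out by the dynamin-like GTPase DRP1, the product of Dnm1l, which is brought to the outer membrane by adaptors such as MFF and MIEF1. Damaged or surplus mitochondria are enclosed by autophagosomes, either after the kinase PINK1 builds up on them and activates the ubiquitin ligase Parkin, or through receptors that sit in the outer membrane, such as BNIP3L (also called NIX), BNIP3 and FUNDC1. Much of this regulation acts on the proteins, through cleavage, phosphorylation and turnover, which RNA-Seq does not measure.

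Because RHPS4 is a G4 ligand, the sequences before the transcription starts of these genes were read from RefSeq (build GRCm38.p6), as windows of 300 bases that run from 250 before to 50 after a start. The table held 14 such windows for 9 of the 10 genes, all but Bnip3l. A simple quadruplex motif was searched on both strands, namely 4 runs of at least 3 G with loops of 1 to 7 bases. It was found in 2 of the 14 windows, the most upstream one of Mfn2 and the more downstream one of Dnm1l, while 18.6% of the 32851 mouse windows of this length hold it. The hexamer GGGCGG, counted on both strands and free to overlap the quadruplex motif, was found in 11 of the 14 windows and in 35.7% of all windows. The windows of Mff overlap each other, as do those of Mfn2, so the 14 are not separate promoters. A site can thus be counted in several windows, and the shares were not compared by a test. Of the 9 genes with a window, only Fundc1 had no GGGCGG. The stretches below are those of the gene with the largest fold change of the 10, Pink1, and of both genes with a quadruplex motif, each 150 bases long and on the minus strand of the chromosome. In Pink1 the capitals mark GGGCGG, which lies on the opposite strand and so reads CCGCCC, and in Mfn2 and Dnm1l they mark the runs of the quadruplex motif, which lie on the opposite strand in Mfn2 and on the gene's own strand in Dnm1l.
Pink1, chr4:138326297-138326446, bases 1 to 150 before the start: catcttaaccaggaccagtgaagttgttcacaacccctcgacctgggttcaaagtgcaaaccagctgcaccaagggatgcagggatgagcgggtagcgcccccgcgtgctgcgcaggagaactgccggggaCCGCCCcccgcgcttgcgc
Mfn2, chr4:147904950-147905099, bases 41 to 190 before the start: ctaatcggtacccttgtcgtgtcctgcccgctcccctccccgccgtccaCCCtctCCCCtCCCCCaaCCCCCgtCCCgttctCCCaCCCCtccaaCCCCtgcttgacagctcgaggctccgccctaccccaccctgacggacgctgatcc
Dnm1l, chr16:16358576-16358725, bases 1 to 150 before an inner start: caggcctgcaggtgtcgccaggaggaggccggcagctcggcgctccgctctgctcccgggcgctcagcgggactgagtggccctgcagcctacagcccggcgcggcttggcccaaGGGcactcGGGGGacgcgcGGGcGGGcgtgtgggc
A match is a matter of letters only and does not show that a G4 forms or that RHPS4 binds there.

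The libraries held from 10455965 to 26688121 counts, and the 10 genes together from 8029 to 20424 counts per library, so that 3 counts, the smallest level taken as detectable, were worth 0.119 to 0.311 CPM (counts scaled to library size with edgeR's TMM method). Such a floor takes in counting error alone, because fragments amplified by PCR do not count separate molecules. The MEF label was checked against fibroblast markers (Col1a1, Col1a2, Col3a1, Vim, Pdgfra, Pdgfrb, Thy1, S100a4 and Fn1), 9 of 9 of which had counts in every library. Their summed level was 13938 to 14381 CPM at 0 µM, 12719 to 12944 at 2 µM and 12356 to 12678 at 10 µM, while the summed markers of epithelial, endothelial, blood, skeletal muscle and pluripotent cells stayed between 0.55 and 9.38 CPM in every library. The summed fibroblast markers were thus lower the higher the dose, with no overlap between the doses, and their part in the results below was not tested. Single markers did not all follow the sum. By group means Col1a1, Col1a2, Pdgfrb and S100a4 followed this order. Col3a1, Pdgfra, Thy1 and Fn1 were lowest at 2 µM, and Vim was highest there. Pdgfra averaged 204 CPM at 0 µM, 167 at 2 µM and 204 at 10 µM. In bulk RNA, fewer cells of a type and less RNA per cell cannot be told apart. Replicate 1 of 0 µM stood apart from the other untreated libraries, with a chi-square of 15.4 and 20.2 per degree of freedom against them while they differed from each other by 3.23, and it was the smallest library. It had the highest Bnip3l, Pink1, Fundc1, Fis1 and Mff and the lowest Mfn2 of the untreated libraries, and values without it are given where results rest on it. Transcripts of mitochondrial DNA made up 13.2% to 14.4% of the counts at 0 µM, 7.40% to 8.26% at 2 µM and 5.33% to 6.32% at 10 µM, a difference in composition that the TMM scaling takes into account and a scaling by total counts does not.

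In untreated MEFs, the outer membrane protein gene Fis1 and the mitophagy receptor gene Bnip3l were the most abundant of the set per length of exon. Fis1 stood at 46.5 ± 3.54 CPM per kb (SD, n = 3) and Bnip3l at 45.1 ± 2.39 (SD, n = 3), and their libraries overlapped. Dnm1l followed at 28.7 ± 0.975 CPM per kb, Fundc1 at 17.7 ± 1.62 and Opa1 at 13.2 ± 0.251 (SD, n = 3 each), with no overlap between neighbours in this order. Mfn2 (10.7 ± 1.04), Mfn1 (9.92 ± 0.417) and Pink1 (9.80 ± 0.664 CPM per kb) came next, and among these 3 the neighbours overlapped, while Mfn2 lay below Opa1 and Pink1 above Mief1 without overlap. Mief1 had 7.64 ± 0.0884 and Mff 5.84 ± 0.390 CPM per kb, so that Fis1 lay 7.97-fold above Mff. This order rests on the length the counts are divided by, which was all exonic bases of the gene in GENCODE M21. With the length of the principal transcript, Fis1 stood at 101 CPM per kb and Bnip3l at 53.8, so that they no longer shared the top, Mff stood at 30.1, above Fundc1, and Pink1 became the lowest. Whether GENCODE M21 is the annotation behind the counts is not given in the sources used here.

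**Figure D1:**
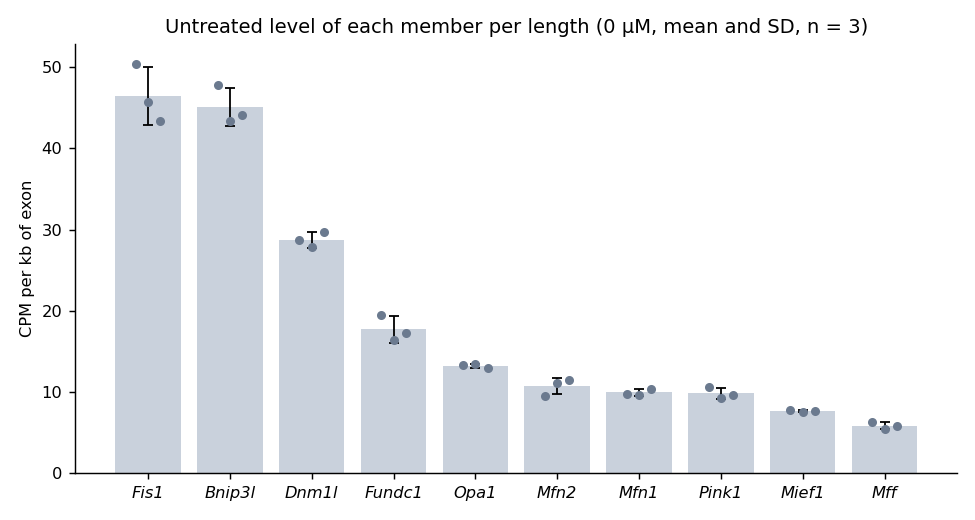
Level of each of the 10 genes in untreated MEFs, in CPM per kb of exon. Bars are means of 3 libraries, error bars are 1 SD and points are libraries. Fis1 and Bnip3l share the top at 46.5 and 45.1, and Mff is lowest at 5.84, all with this length. With that of the principal transcript the means are 101, 53.8 and 30.1.

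Each gene was then compared between the doses with edgeR's quasi-likelihood test, fitted to all 14296 genes with enough counts, and a gene passed at an adjusted p under 0.05. The study's own rule for a differentially expressed gene (DEG), which asks for a change above 1.5-fold and an adjusted p below 0.01, was applied as well. The 3 comparisons share libraries, so their values are given side by side and not as separate evidence.

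Of the 10 genes, Pink1 and Bnip3l passed in some comparison and the other 8 did not pass in any. The Bnip3l call at 2 µM and the Pink1 call at 10 µM against 0 µM were lost under several alternatives, given below. Pink1 stood lower at 2 µM, where it did not pass, and higher at 10 µM than in untreated cells, while Bnip3l was lower at both doses. At 2 µM against 0 µM, 1 gene passed, Bnip3l, which fell. With same-numbered libraries paired as blocks, 0 of the 10 passed there, against 476 of 14296 genes. Of all genes tested, 1.51% rose and 2.65% fell in this comparison, and 0.497% were DEGs, against 0 of the 10. At 10 µM against 0 µM, 2 genes passed, Pink1 rising and Bnip3l falling, against 6.81% rising and 7.11% falling among all genes. None of the 10 was a DEG, against 3.09% of all genes. Scaled by total counts, which moved the median of all genes to 0.23, 5 of the 10 passed at 10 µM (Mfn1, Opa1, Dnm1l, Mff and Pink1), all 5 rising. With that scaling 4081 of the 14296 genes passed at 10 µM in either direction. Between the doses 1 gene passed, Pink1, which rose and was a DEG, while 11.5% of all genes rose, 11.9% fell and 5.51% were DEGs. With total counts 3 of the 10 rose there, against 3599 of 14296 genes passing in either direction. At 1 or 2 of 10 genes, these shares are too coarse to be set apart from the background. The median log2 fold change of the 10 genes was 0.02 at 2 µM (−0.01 over all genes tested), 0.05 at 10 µM (0.02 over all genes) and 0.02 between the doses (0.03 over all genes).

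**Figure D2:**
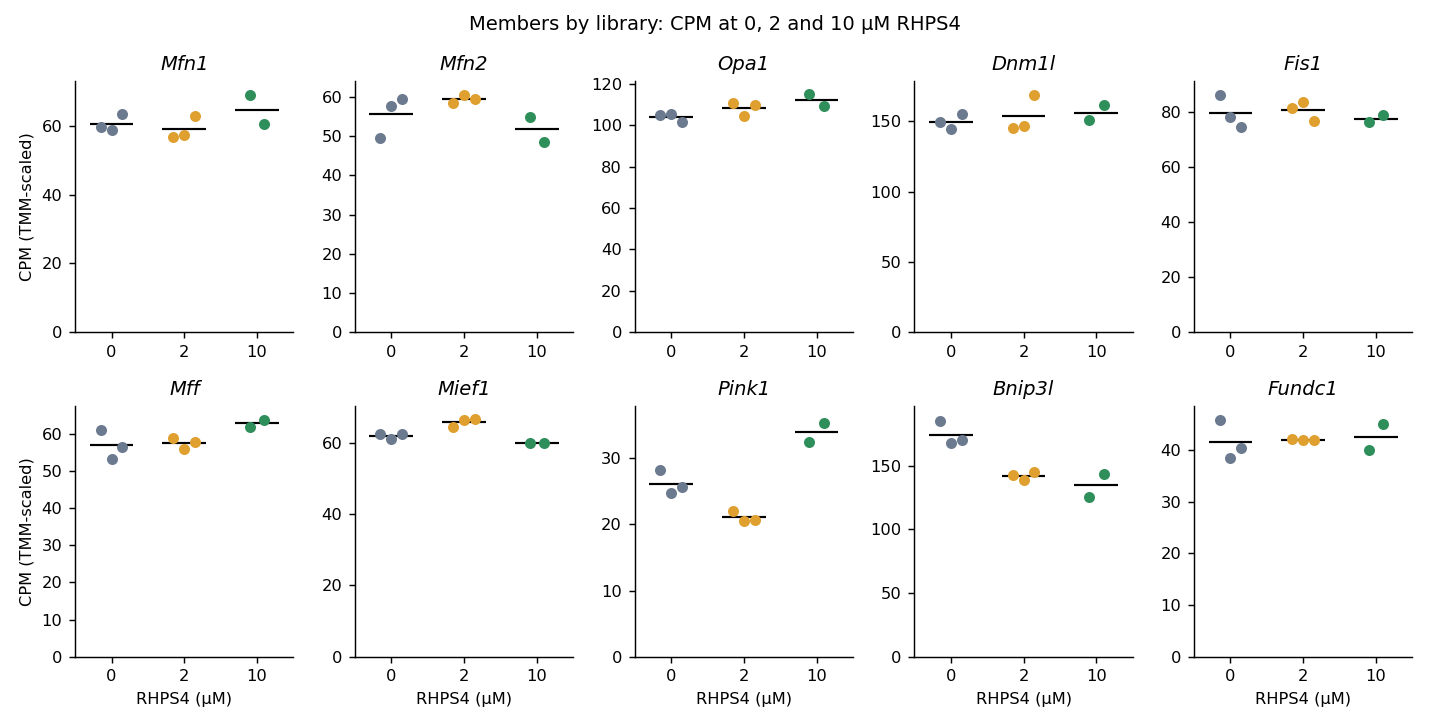
Level of each of the 10 genes in every library, in TMM-scaled CPM, at 0, 2 and 10 µM RHPS4. Points are libraries and lines are group means. The Pink1 groups and the Mief1 groups are separate at all 3 doses. The treated Bnip3l libraries all lie below the untreated ones, and in each other panel some groups overlap.

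Bnip3l encodes a mitophagy receptor of the outer membrane, known for clearing mitochondria from maturing red blood cells. It had 185, 167 and 170.1 CPM in the untreated libraries, 143, 139 and 145 CPM at 2 µM, then 126 and 144 CPM with 10 µM. All treated libraries lay below all untreated ones, and the doses overlapped each other. Bnip3l averaged 174 ± 9.22 CPM (SD, n = 3) without RHPS4 and 142 ± 2.99 CPM (SD, n = 3) with 2 µM. The fitted log2 fold change was −0.29 with a standard error (SE) of 0.0735, and it passed narrowly (edgeR adjusted p = 0.0495). With the replicate block, the pairing of same-numbered libraries, the change was again −0.29, and its adjusted p of 0.0723 missed the threshold. The call at 2 µM held without replicate 1 of 0 µM (−0.24, edgeR adjusted p = 0.0437) and was lost when any one of the other 7 libraries was left out, with adjusted p values from 0.0541 to 0.204. It was also lost with total counts (−0.21, adjusted p = 0.0795), no filter (adjusted p = 0.064) and TMM over nuclear genes (adjusted p = 0.0515). At 10 µM Bnip3l fell by 0.37, to 135 ± 12.7 CPM (SD, n = 2), with an SE of 0.0828 (edgeR adjusted p = 0.0139). This call held with the replicate block (adjusted p = 0.033) and without replicate 1 of 0 µM (adjusted p = 0.0103), but not without replicate 1 of 10 µM, the lower library (−0.31, adjusted p = 0.0766), or with total counts (−0.15, adjusted p = 0.163). The difference between the doses was −0.08 (95% interval −0.26 to 0.10, adjusted p = 0.541). Bnip3l lies on chromosome 14 from 66985239 to 67008877 (GRCm38), and 16.9% of the 75-base stretches of its transcripts, the read length, also occur in the pseudogene Bnip3l-ps, so reads from those stretches could be missing from counts of uniquely mapped fragments.

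Pink1 encodes the kinase that senses mitochondria with a lowered membrane potential and starts Parkin-dependent mitophagy. It had the lowest CPM of the set, at 28.2, 24.8 and 25.6 in the untreated libraries, 22.1, 20.6 and 20.7 at 2 µM, then 32.4 and 35.4 with 10 µM. The untreated libraries all exceeded those at 2 µM, and both 10 µM libraries lay above them all. Between the doses Pink1 rose from a mean of 21.1 ± 0.832 CPM (SD, n = 3) to one of 33.9 ± 2.11 CPM (SD, n = 2), which is 60.5% more and 0.68 on the log2 scale (SE 0.0945, edgeR adjusted p = 0.000643). It passed under each of the 16 alternatives run, with fold changes from 0.58 to 0.82, and missed only the DEG threshold without replicate 2 of 10 µM (adjusted p = 0.0119). Against 26.2 ± 1.77 CPM (SD, n = 3) in untreated cells, Pink1 rose by 0.38 at 10 µM (SE 0.0926, edgeR adjusted p = 0.0206). That call was lost with the replicate block (0.36, adjusted p = 0.0549), with DESeq2 (adjusted p = 0.0631), when the 2 µM libraries were kept out of the fit (adjusted p = 0.0527) and without replicate 2 of 0 µM (adjusted p = 0.0933), replicate 3 of 0 µM (adjusted p = 0.0755) or replicate 2 of 10 µM (adjusted p = 0.203). It held without replicate 1 of 0 µM (0.40, adjusted p = 0.0116). At 2 µM the fold change was −0.30 (SE 0.0866, 95% interval −0.49 to −0.11), and its adjusted p of 0.074 did not pass, nor did it under any alternative. Pink1 lies on chromosome 4 from 138313409 to 138326307, and the window before its start, shown above, held no quadruplex motif.

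Fundc1, a mitophagy receptor known from hypoxia, did not pass in any comparison. Its libraries had 45.9, 38.5 and 40.5 CPM at 0 µM, 42.1, 41.9 and 41.9 at 2 µM, then 40.0 and 44.9 with 10 µM, and the untreated range enclosed all treated libraries. Its log2 fold changes were 0.02 at 2 µM (95% interval −0.17 to 0.21) and 0.04 at 10 µM (−0.17 to 0.24). Of the 3 mitophagy genes, therefore, Bnip3l passed as lower at both doses, Pink1 as higher at 10 µM, and Fundc1 did not pass. The Bnip3l call at 2 µM and the Pink1 call against 0 µM were lost under several alternatives, among them the replicate block.

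**Figure D3:**
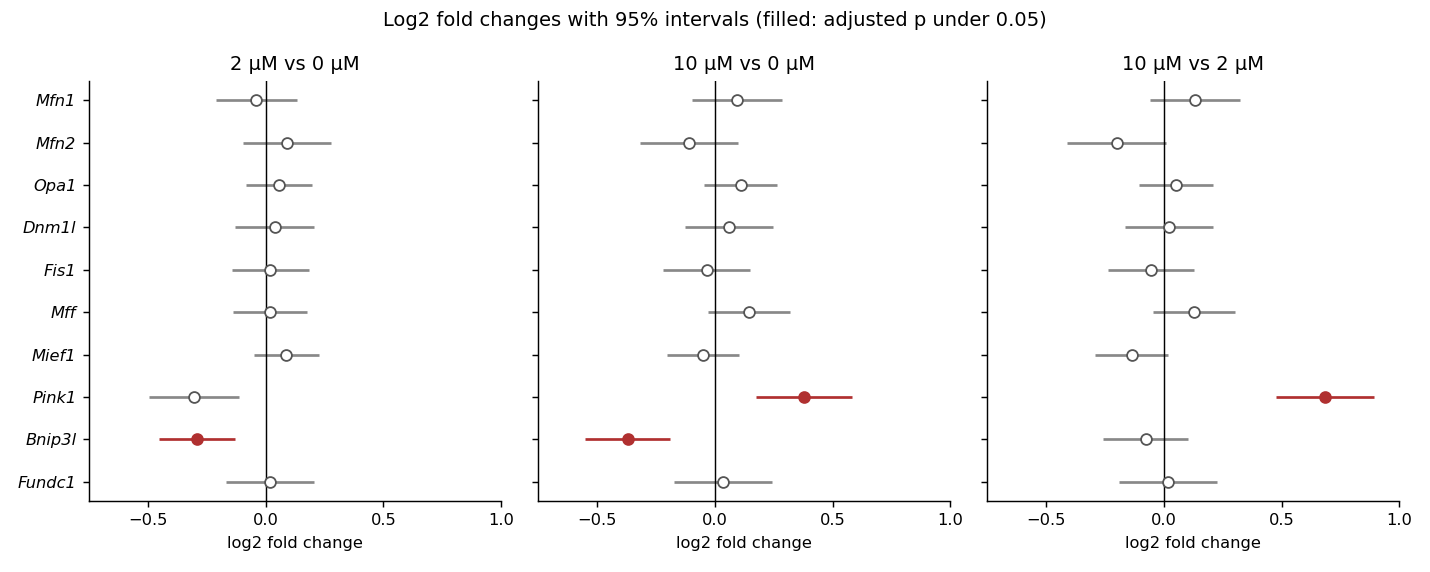
Log2 fold change of each of the 10 genes in the 3 comparisons, with 95% intervals from edgeR's fit. Filled red points have an adjusted p under 0.05, which are Bnip3l at 2 µM, Pink1 and Bnip3l at 10 µM and Pink1 between the doses, at 0.68.

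Among the fusion genes, none of 3 passed in any comparison. Mfn1, one of the mitofusins that tether and merge the outer membranes, had 59.6, 58.9 and 63.6 CPM at 0 µM, 56.8, 57.3 and 62.9 at 2 µM, then 69.0 and 60.5 with 10 µM. The groups overlapped, and the log2 fold changes were −0.04 at 2 µM (95% interval −0.21 to 0.13) and 0.09 at 10 µM (−0.10 to 0.28). Mfn2, the other mitofusin, which also tethers mitochondria to the endoplasmic reticulum, had 49.5, 57.8 and 59.6 CPM at 0 µM, 58.5, 60.5 and 59.6 at 2 µM, then 55.0 and 48.6 with 10 µM. Both 10 µM libraries lay below all 2 µM libraries, while either dose overlapped with the untreated libraries, of which replicate 1 was the lowest. The Mfn2 difference between the doses was −0.20 (95% interval −0.41 to 0.01, edgeR adjusted p = 0.155). Without replicate 1 of 0 µM, which enters that comparison only through the shared estimate of the spread and the scaling, it was −0.23 and passed (adjusted p = 0.042).
Opa1, the GTPase of inner membrane fusion and cristae shape, had 105, 105 and 102 CPM at 0 µM, 111, 104 and 110.0 at 2 µM, then 115 and 109.6 with 10 µM. Both 10 µM libraries lay above the untreated ones, with a log2 fold change of 0.11 (95% interval −0.05 to 0.27, edgeR adjusted p = 0.336). Mfn1 lies on chromosome 3 from 32529465 to 32579239, Mfn2 on chromosome 4 from 147873599 to 147904704 and Opa1 on chromosome 16 from 29579334 to 29654884. The pseudogene Gm13156 lies across Mfn2 on the opposite strand. The kit keeps the strand, but whether the counting used it is not given in the sources used here.

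The mitofusins act as pairs of like or unlike partners, so the log2 ratio of Mfn1 to Mfn2 counts was taken library by library, which leaves the scaling out of it. With 0.5 added to each count, it was 0.27, 0.03 and 0.09 at 0 µM, −0.04, −0.08 and 0.08 at 2 µM, then 0.33 and 0.31 with 10 µM. The 10 µM libraries had the highest values of all, and the 2 µM and untreated libraries overlapped. The mean was 0.13 ± 0.124 (SD, n = 3) in untreated cells, −0.01 ± 0.0816 with 2 µM (SD, n = 3) and 0.32 ± 0.00923 with 10 µM (SD, n = 2). The difference from 0 µM was −0.14 at 2 µM (two-sided exact permutation test, p = 0.2) and 0.19 at 10 µM (two-sided exact permutation test, p = 0.2), where neither design could give a p below 0.1. Between same-numbered libraries, the equivalent of a replicate block, the ratio was lower at 2 µM than at 0 µM in 3 of 3 pairs, by differences of −0.31, −0.10 and −0.02. Their mean was −0.14 (two-sided exact sign-flip permutation test, p = 0.25, the smallest that 3 pairs can give). At 10 µM, where the numbers did not pair the libraries, the mean of such differences was 0.17.

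**Figure D4:**
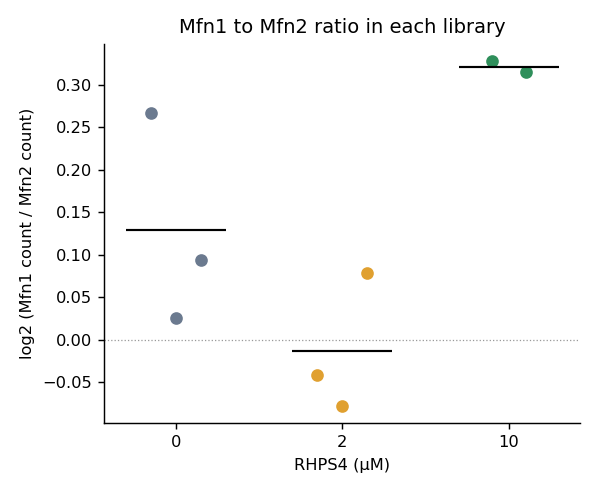
Log2 ratio of Mfn1 to Mfn2 counts in each library at 0, 2 and 10 µM RHPS4. Points are libraries and lines are group means. Both 10 µM libraries lie above 0.3, and the ratio of untreated replicate 1 is 0.27.

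Among the fission genes, none of 4 passed in any comparison. Dnm1l, the gene of the GTPase that constricts mitochondria, had 149, 145 and 155 CPM at 0 µM, 145, 147 and 169 at 2 µM, then 151 and 161 with 10 µM. The groups overlapped, with log2 fold changes of 0.04 at 2 µM (95% interval −0.13 to 0.21) and 0.06 at 10 µM (−0.13 to 0.25). Fis1, an outer membrane protein that can bind the fission machinery, had 86.3, 78.3 and 74.4 CPM at 0 µM, 81.6, 83.6 and 76.7 at 2 µM, then 76.4 and 78.8 with 10 µM. All treated Fis1 libraries lay within the untreated range.
Mff, the main adaptor that brings DRP1 to mitochondria, had 60.9, 53.3 and 56.6 CPM at 0 µM, 58.8, 55.98 and 57.8 at 2 µM, then 61.9 and 63.8 with 10 µM. Both 10 µM libraries lay above all others, by a log2 fold change of 0.15 over untreated cells (95% interval −0.03 to 0.32, edgeR adjusted p = 0.246). Mief1, an adaptor that binds DRP1, had 62.4, 61.1 and 62.3 CPM at 0 µM, 64.4, 66.2 and 66.6 at 2 µM, then 59.8 and 59.8 with 10 µM. Its groups did not overlap at any pair of doses, highest at 2 µM and lowest at 10 µM. The differences were small, at 0.09 for 2 µM (95% interval −0.05 to 0.23), −0.05 for 10 µM (−0.20 to 0.11) and −0.14 between the doses (−0.29 to 0.02, edgeR adjusted p = 0.186). Dnm1l lies on chromosome 16 from 16312230 to 16358959, Fis1 on chromosome 5 from 136953275 to 136966234, Mff on chromosome 1 from 82724890 to 82752394 and Mief1 on chromosome 15 from 80234018 to 80253371. Genes on the opposite strand lie across Dnm1l (Gm49521) and Mff (C430014B12Rik), and another coding gene, AC140267.1, overlaps Mief1 on its own strand.

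Groups without overlap were common in these libraries and are no result in themselves. Of the 10 genes, 3 had no overlap between 2 and 0 µM (Mief1 above, Pink1 and Bnip3l below), against 25.7% of all genes tested. Between 10 and 0 µM 5 had none (Opa1, Mff and Pink1 above, Mief1 and Bnip3l below), against 42.9% of all genes. Between 10 and 2 µM 4 had none (Mff and Pink1 above, Mfn2 and Mief1 below), against 51.8% of all genes. For the genes that did not pass, the 95% intervals reached from −0.49 (Pink1) to 0.28 (Mfn2) at 2 µM, from −0.32 (Mfn2) to 0.32 (Mff) at 10 µM, and from −0.41 (Mfn2) to 0.32 (Mfn1) between the doses.

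Another 54 genes of the same pathways, in lists for fusion and OPA1 processing, fission, PINK1-Parkin mitophagy, receptor mitophagy and mitochondrial transport, were set beside the 10. Of these, 51 had enough counts to be tested. At 2 µM 4 of the 51 passed, 2 rising and 2 falling (2 of 51 with the replicate block, against 476 of 14296 genes). At 10 µM 8 passed, 4 in each direction (5 with the replicate block, against 1577 of 14296 genes). Between the doses 9 passed, 4 rising and 5 falling. The share that passed was 7.84% at 2 µM against 4.16% of all genes tested, 15.7% at 10 µM against 13.9%, and 17.6% between the doses against 23.4%. The lists were chosen with earlier results of these data known, so these shares are no test of the pathways. These counts moved with the libraries. Without replicate 1 of 0 µM the counts were 15 for 2 µM, 12 for 10 µM and 13 from dose to dose. The calls over all 14629 genes of that fit were 2061, 2836 and 4244. Without any one of the other 0 or 2 µM libraries only 1 passed at 2 µM, with 82 to 277 calls over all genes. Scaled by total counts, 9 rose and 1 fell with 2 µM, 22 rose and 2 fell with 10 µM, and 9 rose and 3 fell between the doses. With that scaling 1364, 4081 and 3599 of all 14296 genes passed in either direction, and the median of all genes moved to 0.07, 0.23 and 0.16. The 14 genes that passed in some comparison are those named below. The share of all genes that passed in some comparison was not taken. The counts per list below therefore have no background beside them and are no result about a list. Between the doses alone 23.4% of all genes passed.

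**Figure D5:**
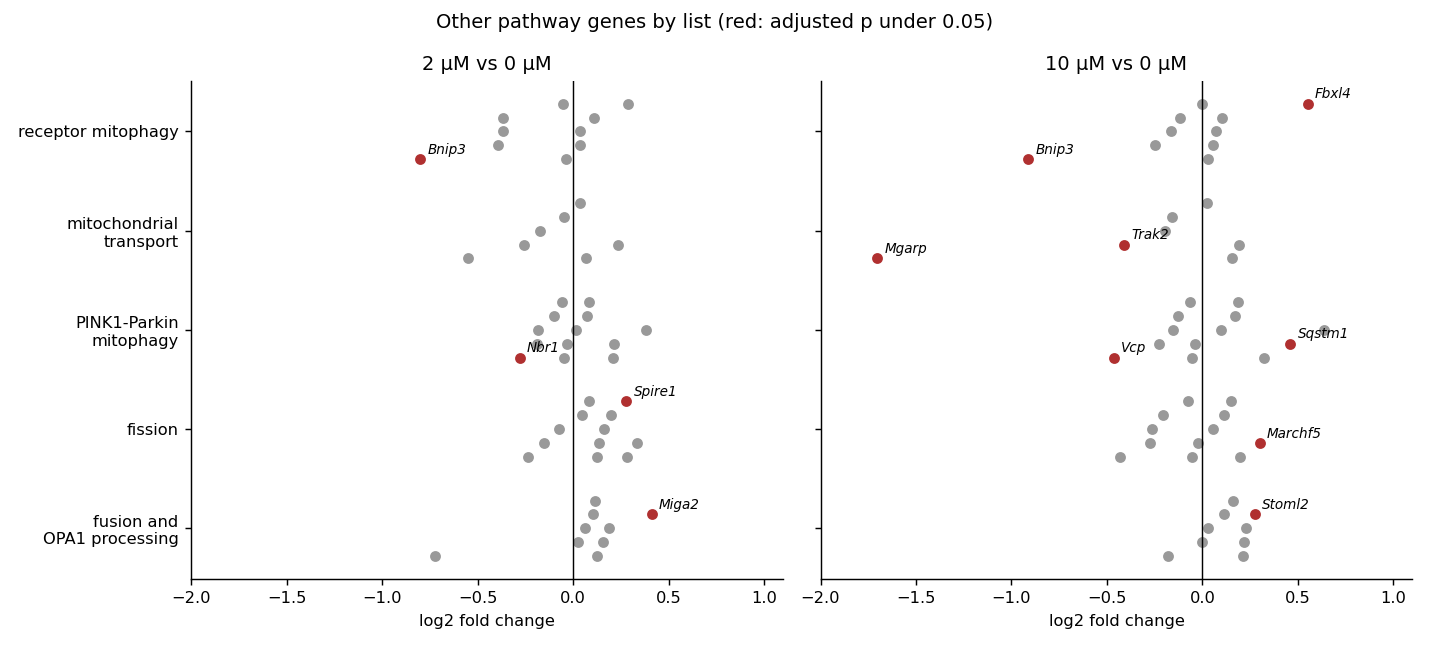
Log2 fold changes of the 51 tested pathway genes by list, at 2 and 10 µM against 0 µM. Each point is a gene, and red points with names have an adjusted p under 0.05. Bnip3 lies far to the left at both doses, and the other points of its list spread around 0.

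The receptor mitophagy list had 10 tested genes, of which Bnip3 and Fbxl4 passed. Bnip3, the close relative of Bnip3l and a receptor known as a target of hypoxia-inducible factor, had 117, 97.9 and 118 CPM at 0 µM, 62.1, 66.3 and 62.4 at 2 µM, then 53.9 and 64.0 with 10 µM. All treated libraries lay below all untreated ones. Bnip3 fell by 0.80 at 2 µM (SE 0.0929, edgeR adjusted p = 0.00163) and by 0.91 at 10 µM (standard error 0.106, adjusted p = 0.000297), a DEG at both doses, and passed under each of the 16 alternatives in both comparisons. Both receptor genes of this pair were thus lower at both doses, Bnip3l by the smaller fold. Fbxl4, which encodes an F-box protein known to restrain BNIP3 and BNIP3L, had 21.3, 17.7 and 18.8 CPM at 0 µM, 21.3, 19.4 and 21.2 at 2 µM, then 27.1 and 29.0 with 10 µM. Both 10 µM libraries lay above all others, and Fbxl4 rose by 0.55 against 0 µM (edgeR adjusted p = 0.0052) and by 0.44 against 2 µM (adjusted p = 0.0105), calls that were both lost without replicate 2 of 10 µM.

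In the list for PINK1-Parkin mitophagy, 3 of 13 tested genes passed somewhere. Sqstm1, the gene of the autophagy adaptor p62, had 278, 227 and 233 CPM at 0 µM, 215, 214 and 217 at 2 µM, then 313 and 364 with 10 µM. The order of its groups was that of Pink1, lowest at 2 µM and highest at 10 µM. How many genes of this list, or of all genes, share that order was not counted. Orders differed within the list, with Usp15 highest at 2 µM and Vcp lowest at 10 µM by group means. Sqstm1 rose by 0.46 at 10 µM against 0 µM (SE 0.0986, edgeR adjusted p = 0.0112) and by 0.65 against 2 µM (adjusted p = 0.0011, a DEG), with −0.19 at 2 µM (adjusted p = 0.247). Nbr1, a related adaptor that binds ubiquitin, had the same order of groups, at 184, 172 and 178 CPM at 0 µM, 149, 143 and 148 at 2 µM, then 197 and 209 with 10 µM. It fell by 0.28 at 2 µM (edgeR adjusted p = 0.0376), was not called at 10 µM (0.19, adjusted p = 0.107) and rose by 0.47 between the doses (adjusted p = 0.00115). The Sqstm1 call at 10 µM was lost without replicate 2 of 0 µM or of 10 µM, and the Nbr1 call at 2 µM was lost without any one library other than replicate 1 of 0 µM and with the replicate block (−0.28, adjusted p = 0.0529), total counts (−0.20, adjusted p = 0.0624) or no filter (adjusted p = 0.0588). Vcp, the ATPase that pulls ubiquitin-tagged proteins such as mitofusins from membranes, fell by 0.47 at 10 µM against 0 µM (edgeR adjusted p = 0.00667) and by 0.41 against 2 µM (adjusted p = 0.00816), both lost without replicate 2 of 10 µM. The first was lost with total counts too (−0.25, adjusted p = 0.0594).

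In the fission list 3 of 12 tested genes passed somewhere. Akap1, the anchor that holds protein kinase A at the outer membrane near DRP1, had a mean of 67.8 CPM at 0 µM, 82.4 at 2 µM and 56.5 at 10 µM. It fell by 0.54 between the doses (edgeR adjusted p = 0.00465). Spire1, an actin nucleator with a form at mitochondria, rose by 0.28 at 2 µM (edgeR adjusted p = 0.0449) and fell by 0.30 between the doses (adjusted p = 0.0163). Marchf5, listed as March5 in the files, a ubiquitin ligase of the outer membrane, rose by 0.30 at 10 µM (edgeR adjusted p = 0.0435). The Spire1 call between the doses was lost without replicate 2 of 2 µM or of 10 µM. The Spire1 call at 2 µM and the Marchf5 call were each lost in 7 of the 8 fits that left out 1 library, all but the one without replicate 1 of 0 µM. With the replicate block neither passed, Spire1 at 0.28 (adjusted p = 0.0672) and Marchf5 at 0.28 (adjusted p = 0.0938), nor did they with DESeq2 (adjusted p of 0.0766 and 0.0945) or without the filter on low counts (0.0762 and 0.0976), and Marchf5 did not when the 2 µM libraries were kept out of the fit (0.0967). The Spire1 call between the doses was lost with total counts (−0.17, adjusted p = 0.127).
In the list for fusion and OPA1 processing 3 of 9 passed somewhere. Miga2, listed as Fam73b, a protein that promotes fusion through lipids of the outer membrane, rose by 0.41 at 2 µM (edgeR adjusted p = 0.0317), a call lost without any one of replicates 2 and 3 of 0 µM or any 2 µM library. Stoml2, an inner membrane scaffold, rose by 0.27 at 10 µM (adjusted p = 0.043), lost without any library other than replicate 1 of 0 µM. That call was lost in 12 of the 16 alternatives in all, also with the replicate block (0.25, adjusted p = 0.0883), RLE scaling (adjusted p = 0.0511), DESeq2 (adjusted p = 0.136), no filter on low counts (adjusted p = 0.129) and the 2 µM libraries kept out (adjusted p = 0.0991). Immt, the gene of the MICOS subunit mitofilin, fell by 0.29 between the doses (adjusted p = 0.0167), lost without replicate 1 of 2 µM or replicate 2 of 10 µM and with total counts (−0.15, adjusted p = 0.138).
Of the 7 genes for mitochondrial transport, Trak2, an adaptor between mitochondria and their motors, fell by 0.41 at 10 µM against 0 µM (edgeR adjusted p = 0.0065) and by 0.37 against 2 µM (adjusted p = 0.00753). Armcx3, an outer membrane protein of mitochondrial transport, rose by 0.41 between the doses (adjusted p = 0.0176). Mgarp, with as few as 5 counts in a library, fell by 1.70 at 10 µM (edgeR adjusted p = 0.0198), from 1.16 CPM to 0.368 CPM, and is measured with little precision. The Trak2 call against 0 µM was lost without replicate 2 of 10 µM and with total counts (−0.20, adjusted p = 0.0752), the Armcx3 call without replicate 2 or 3 of 2 µM or either 10 µM library, and the Mgarp call without replicate 3 of 0 µM or either 10 µM library and with the replicate block (−1.55, adjusted p = 0.067). DESeq2 gave Mgarp no adjusted p, and it was not tested where every library had to reach 10 counts.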

How the data were processed

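RNA-Seq of MEFs used stranded total RNA libraries, made after removal of nuclear rRNA, and paired reads of 75 bases. The authors trimmed the reads with Trim Galore and cutadapt, aligned them to mm10 with STAR (2.5.2a per the submitters' processing notes) and deposited counts per gene of uniquely mapped fragments from featureCounts, without normalization. Whole-number counts were used as deposited, 1 file per library, with dose groups from the labels.

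Tests were run with edgeR 4.0.16 in R 4.3.3 (TMM, filterByExpr, glmQLFit, glmQLFTest) over all 8 libraries with dose as the only factor. The 10 µM group has 2 libraries and so shares its spread with the others. P values were Benjamini-Hochberg adjusted over 14296 genes. The study used DESeq2 with an adjusted p under 0.01 and a fold over 1.5, and DESeq2 1.42.0 was run as an alternative. The standard error was the log2 fold change divided by the square root of F. The fits were tested on simulated data with changes planted between 2 and 0 µM only, larger than those of the 10 genes. Smaller changes and changes at 10 µM were not simulated. No replicates agreed within sampling noise.

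The replicate numbers come from the labels. Deviations of same-numbered 0 and 2 µM libraries correlated at 0.104 to 0.289, over the limit of 0.1 in all 3 pairs, while the 4 pairs with 10 µM lay between −0.219 and −0.029. Blocked values are given where they end a call, also at 10 µM, where the replicate numbers did not pair the libraries.

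The genes and lists were chosen with earlier results of these data known. All 10 genes are described, and other pathway genes with an adjusted p under 0.05 in any comparison are named, up to 15. Not analysed here are Pld6, Gdap1 and Calcoco2, which had too few counts. Alternatives were RLE scaling, TMM over nuclear genes, total counts, no filter, at least 10 counts in every library, DESeq2, the replicate block, only the 2 groups compared, a pseudocount of 5 for the ratio and each library left out. The length of the principal transcript and the paired test of the ratio were chosen after seeing the data. Gene positions came from GENCODE M21 (GRCm38, the assembly of mm10).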

Additional observations from a re-analysis of the deposited data

How the results depend on the processing

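Of the fold changes of the 10 genes under the 16 alternatives, 421 of 480 kept their direction and side of the threshold, 19 lost and 7 gained a call and 33 turned direction, none of the last for a called change. The count of the 10 that passed at 2 µM was 0 with TMM over nuclear genes, total counts, no filter or the replicate block, and 0 to 1 with 1 library left out. At 10 µM against 0 µM it was 5 with total counts (1 of them a DEG), 1 with DESeq2, the replicate block or only the 2 groups compared, and 1 to 2 with 1 library left out. Between the doses it was 3 with total counts and 1 to 2 (DEGs 0 to 1) with 1 library left out. Scaling by total counts moved the median of all genes to 0.23 at 10 µM and 0.16 between the doses. Relative to it Pink1 stood at 0.36 and Bnip3l at −0.38 at 10 µM, where Bnip3l itself was −0.15 (edgeR adjusted p = 0.163). Under it the sign turned for Mfn1 at 2 µM (0.041), for Mfn2 (0.10), Fis1 (0.18) and Mief1 (0.17) at 10 µM, and for Fis1 (0.080) and Bnip3l (0.058) between the doses. Without the filter and with DESeq2, Fundc1 was −0.0045 and −0.0013 at 10 µM and −0.027 and −0.024 between the doses, and Dnm1l −0.021 and −0.018 between the doses. With 1 library left out, the ranges at 2 µM were −0.030 to 0.079 for Dnm1l, −0.029 to 0.085 for Fis1, −0.021 to 0.073 for Mff and −0.028 to 0.094 for Fundc1. At 10 µM they were −0.037 to 0.16 for Mfn1, −0.016 to 0.091 for Dnm1l and −0.077 to 0.087 for Fundc1. Between the doses they were −0.0071 to 0.18 for Mfn1, −0.024 to 0.063 for Opa1, −0.066 to 0.074 for Dnm1l and −0.11 to 0.059 for Fundc1. The other pathway genes passing numbered 10 with total counts, 2 with no filter, 2 with the replicate block and 1 to 15 with 1 library left out at 2 µM. At 10 µM they numbered 24 with total counts, 5 with DESeq2, 5 with the replicate block and 1 to 12, and between the doses 5 to 13, with 1 library left out. Over all genes, 550 of 23612 passed at 2 µM without the filter, and 1769 passed at 10 µM with DESeq2. The cause of the changes between settings was not tested. Apart from Bnip3l at 2 µM and Pink1 at 10 µM against 0 µM, the replicate block changed no call of the 10 genes. Where a library left out leaves 1 at 10 µM, that one is assumed to vary like the other groups. With 2 to 3 libraries a dose, the intervals given are the precision of the fold changes.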
